A study of Mus musculus with 3 samples.

Results

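Heat shock proteins are described here across single cells of the mouse blastocyst, through 10 genes of the 23154 listed in each library: the small heat shock proteins Cryab and Hspb1, the inducible HSP70 genes Hspa1a and Hspa1b, the constitutive HSP70 gene Hspa8, the HSP90 genes Hsp90aa1 and Hsp90ab1, the mitochondrial chaperonin pair Hspd1 and Hspe1, and Hsf1. They were chosen by name, for a contrast between inducible and constitutive members and for a proposed restriction of Cryab and Hspb1 to cells high in the keratin genes Krt8 and Krt18. That proposal came from measured levels in these libraries, so the members' values between cells high and low in keratin are given as a description without a test. All 10 genes were present in the 3 libraries.

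The cells came from embryos of the Klf2-H2b mCherry mouse line, in which a red histone fusion reports on Klf2. Per the labels, embryos were taken at E2.5 and cultured in drops under oil, both static and shaken, then sampled at the blastocyst stage, labelled E3.5. The zona pellucida was digested away, blastomeres were loosened without calcium and magnesium, and single cells of mCherry-positive embryos were picked by mouth pipette. Their RNA was copied by a method derived from Smart-seq2, with oligo(dT) primers that carry a cell barcode and a molecular identifier, so that counts come from the 3′ ends of polyadenylated transcripts. The 3 libraries, replicates 1 to 3, form 1 group, because static and shaken cultures cannot be told apart from the labels, and the number of embryos pooled is not stated. All cells carried the reporter line's background, and no cells of another genotype were analysed here.

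Heat shock proteins are molecular chaperones. Small heat shock proteins hold unfolding proteins in soluble form without using ATP, HSP70 proteins fold and refold them in ATP-driven cycles together with J-domain partners, HSP90 proteins mature signalling proteins, and the HSP60 and HSP10 pair encloses proteins inside mitochondria. A constitutive set is made at all times, whereas an inducible set is switched on by Hsf1 when proteins misfold, through GAA and TTC blocks in promoters called heat shock elements. Krt8 and Krt18 form the keratin filaments of simple epithelia, and the trophectoderm, the outer layer of the blastocyst, is the first such epithelium of the embryo.

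The members with a promoter window are shown with the stretches that carry these blocks. These are the 150 bases before the start site in RefSeq promoter windows of GRCm38.p6, each window reaching 250 bases before to 50 bases after a start. Capitals mark the letters GAANNTTC or TTCNNGAA, each of which reads the same on both strands.
Hspb1, chr5:135887769-135887918, plus strand: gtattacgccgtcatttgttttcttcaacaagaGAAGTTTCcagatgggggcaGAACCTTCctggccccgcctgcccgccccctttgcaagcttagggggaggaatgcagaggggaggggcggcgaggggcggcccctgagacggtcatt
Hspa1a, chr17:34972157-34972306, minus strand: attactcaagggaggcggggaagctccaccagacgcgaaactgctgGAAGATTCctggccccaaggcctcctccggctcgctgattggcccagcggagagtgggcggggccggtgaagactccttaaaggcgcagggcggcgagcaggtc
Hspa1b, chr17:34959239-34959388, minus strand: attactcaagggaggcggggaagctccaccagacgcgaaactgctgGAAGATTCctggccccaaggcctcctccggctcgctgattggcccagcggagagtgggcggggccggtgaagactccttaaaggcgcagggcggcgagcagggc
Hspe1, chr1:55087998-55088147, plus strand: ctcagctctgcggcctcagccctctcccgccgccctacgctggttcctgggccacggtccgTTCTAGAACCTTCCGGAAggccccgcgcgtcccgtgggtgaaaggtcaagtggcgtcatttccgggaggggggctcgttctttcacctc

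Windows were found for 5 of the 10 genes, 6 windows in all, and the other genes are Cryab, Hspa8, Hsp90aa1, Hsp90ab1 and Hsf1. Hspb1 held GAANNTTC 2 times, beginning 117 and 97 bases before the start. Hspa1a and Hspa1b each held it once, beginning 104 bases before the start, and their whole windows were identical at 296 of 300 positions. Hspe1 held 3 overlapping motifs that begin 89, 84 and 79 bases before its start, which together also make 2 of the 13-letter forms GAANNTTCNNGAA or TTCNNGAANNTTC. Hspd1 is read in the opposite direction from the same stretch of chromosome 1, and 1 of its 2 windows held the same 3 motifs, 144, 139 and 134 bases before its start, while the other held none. Of all 32851 windows, 15.1% held at least 1 of the 8-letter motifs, 7.86% GAANNTTC and 8.52% TTCNNGAA, and 0.603% held a 13-letter form, so an 8-letter match alone is common. These are letter matches, and no binding was measured.

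Cells were barcodes with at least 2000 genes with a count, which kept 83, 64 and 78 of 96 barcodes in replicates 1, 2 and 3, or 225 of 288. The smallest kept cells had 2214, 2149 and 2112 genes, and the largest barcodes left out had 1803, 1908 and 1803. Libraries held 30573711, 27610866 and 54444536 counts, with a median per cell of 286484, 345414 and 608734. Replicate 3 thus had the most counts per cell but not the most genes, with medians of 7517, 6999 and 7158 genes. The same 96 barcode sequences were used in each library, no column was identical between libraries, and cells with the same number were about as alike as others, with a median Spearman rho of 0.628 to 0.665 for the same number and 0.628 to 0.652 for other numbers. Cells of each library were ranked by Krt8+Krt18 in CPM, a gene's counts scaled to the same total in each cell, and split into 3 classes of near-equal size, keratin-high, keratin-middle and keratin-low, with 74 keratin-high, 77 keratin-middle and 74 keratin-low cells over the libraries. Keratin-high cells began at 1285, 2235 and 3982 CPM in replicates 1, 2 and 3, with the next cells at 1083, 2205 and 3190 CPM. Keratin-low cells ended at 147, 531 and 376 CPM, with the next cells at 153, 568 and 379 CPM. The classes are ranges of a score and not cell types, and 44 and 40 of the 225 cells lay within 1.5-fold of the upper and the lower limit. A list of 17 trophectoderm genes without the keratins summed to 1938, 5256 and 4998 CPM in keratin-high cells and 825, 773 and 513 CPM in keratin-low cells. A list of 10 epiblast genes summed to 436, 268 and 176 CPM in keratin-high cells and 1351, 1996 and 1365 CPM in keratin-low cells, with Sox2, 1 of its defining genes, at 0 throughout. A list of 15 primitive endoderm genes summed to 716, 3365 and 1868 CPM in keratin-high cells and 917, 1262 and 706 CPM in keratin-low cells. It was thus higher in keratin-high cells of replicates 2 and 3. The 4 blood genes stayed at or below 0.0503 CPM in every class.

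Barcode numbers went with expression in ways the labels do not explain. Of the 29 cells at barcodes 33 to 64 of replicate 1, 22 were keratin-low, where they made up most of the 27 cells of that class, and these 29 cells had a median of 1303 CPM of Hspa8, against 4648 CPM in the other 54 cells of that library. In keratin-low cells of replicate 1 the 7 cumulus or granulosa genes summed to 1001 CPM and the 6 oocyte genes to 219 CPM, and Inha and Ptx3 of the cumulus list were at 0 throughout. The median keratin-low cell of that library had 131 CPM of the cumulus genes and 82.2 CPM of the oocyte genes. In its keratin-middle cells the sums were 94.2 and 321 CPM, so the oocyte genes were not highest in keratin-low cells. Of the keratin-high cells, 44 of 74 were at barcodes 1 to 32, against 14 of 74 keratin-low cells. The ratios between keratin classes and the tests are therefore given also without those 29 cells, in 2 ways. In the first the classes of replicate 1 were drawn again in the remaining 54 cells, 18 in each, so that keratin-high cells began at 2274 CPM of Krt8+Krt18 and keratin-low cells ended at 319 CPM; this moves the limits of the classes as well as leaving cells out. In the second the classes were kept as first drawn, which left 26 keratin-high and only 5 keratin-low cells in that library. The cumulus and oocyte genes of keratin-low cells of replicate 1 then summed to 64.9 and 38.5 CPM with classes drawn again, and to 22.6 and 17.3 CPM with classes kept. The part that the ranges play in the keratin differences was not tested further. The labels give no meaning for a barcode range.

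Hsp90ab1 was on average the most abundant member, at 6116, 5614 and 5587 CPM over all cells of replicates 1, 2 and 3. Hspa8, which was above it in replicate 2, followed at 3518, 8480 and 3974 CPM, Hsp90aa1 at 3083, 1770 and 3645 CPM, Hspd1 at 807, 2029 and 1045 CPM, and Hspe1 at 782, 208 and 759 CPM. The other genes were far lower, with Hspb1 at 389, 32.2 and 98.4 CPM, Hspa1a at 62.3, 222 and 16.7 CPM, Cryab at 54.7, 21.4 and 104 CPM, Hsf1 at 8.16, 78.2 and 45.5 CPM, and Hspa1b at 21.9, 10.97 and 4.05 CPM. Hspa8, Hsp90aa1, Hsp90ab1, Hspd1 and Hspe1, called the 5 abundant chaperones below, thus stood above the other members within each library, with the exception of Hspe1 in replicate 2, which lay just below Hspa1a. This grouping is by level, and Hsp90aa1 is stress-inducible in other settings.

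Divided by transcript length, the mean level over the 3 libraries was 2290 ± 118 CPM per kb for Hsp90ab1, 2224 ± 1146 for Hspa8, 863 ± 293 for Hsp90aa1, 753 ± 420 for Hspe1 and 534 ± 268 for Hspd1 (SD, n = 3). The remaining levels per kb were 192 ± 210 for Hspb1, 53.6 ± 37.0 for Cryab, 33.8 ± 36.3 for Hspa1a, 21.1 ± 16.8 for Hsf1 and 4.39 ± 3.21 for Hspa1b. Neighbours in this order differed by less than the larger of their SDs, except for Hspa8 against Hsp90aa1 and Hspd1 against Hspb1. Hspb1 and Hspa1a each had an SD above the mean. Since only 3′ ends of transcripts were captured, a level per kb may understate long transcripts. Short transcripts were low in replicate 2, where 460 genes under 1000 bases had a median log2 ratio of -1.97 to the other libraries and 4903 genes of 2000 bases and over had 0.52, and Hspe1 at 774 bases, Hspb1 at 903 and Cryab at 1117 are the shortest members.

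Cryab, which codes for alpha-B crystallin, a small heat shock protein first known from the eye lens and abundant in muscle, was the member that went with the keratins. It lies on chromosome 9 at 50751325 to 50756636 of mm10, plus strand, with 4 exons, and these overlap exons of Hspb2 on the other strand. Summed over cells, it stood at 160, 47.9 and 193 CPM in keratin-high cells of replicates 1, 2 and 3, against 5.92, 0.707 and 15.1 CPM in keratin-low cells. Keratin-middle cells lay between, at 11.4, 13.7 and 77.8 CPM. The ratio of keratin-high to keratin-low cells was 27.0, 67.6 and 12.8 in the 3 libraries, or 4.84 ± 1.20 on the log2 scale (SD, n = 3). In this comparison 0.537% of 13772 genes tested were called at an edgeR adjusted p below 0.05, and since the same contrast chose Cryab nothing is read from that share.

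The keratin-low cells held 73, 7 and 212 Cryab counts in replicates 1, 2 and 3, and single cells carried much of these. In replicate 3, 1 cell gave 161 of the 212 counts, and it was the cell with the highest keratin level of its class, at 376 CPM. Without barcodes 33 to 64 of replicate 1 and with classes drawn again, the values of that library were 218 CPM in keratin-high cells and 1.23 CPM in keratin-low cells, with 6 counts behind the low value, and the mean log2 ratio was 5.74 ± 1.92. With classes kept they were 161 CPM in keratin-high cells and 2.66 CPM in keratin-low cells, with 4 counts behind the low value, and the mean log2 ratio was 5.22 ± 1.34. Within ranges of 32 barcodes, Cryab was higher in keratin-high cells in all 8 ranges that held both classes. Of these, barcodes 33 to 64 of replicate 1 held only 1 keratin-high cell, with 2 Cryab counts. The same 8 ranges, with that 1 cell, are used for the other genes. The narrowest gap of the 8 was at barcodes 65 to 96 of replicate 2, at 3.60 CPM from 5 counts in keratin-high cells and 1.73 CPM from 6 counts in keratin-low cells. At barcodes 65 to 96 of replicate 3 there were no keratin-high cells.

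**Figure D1:**
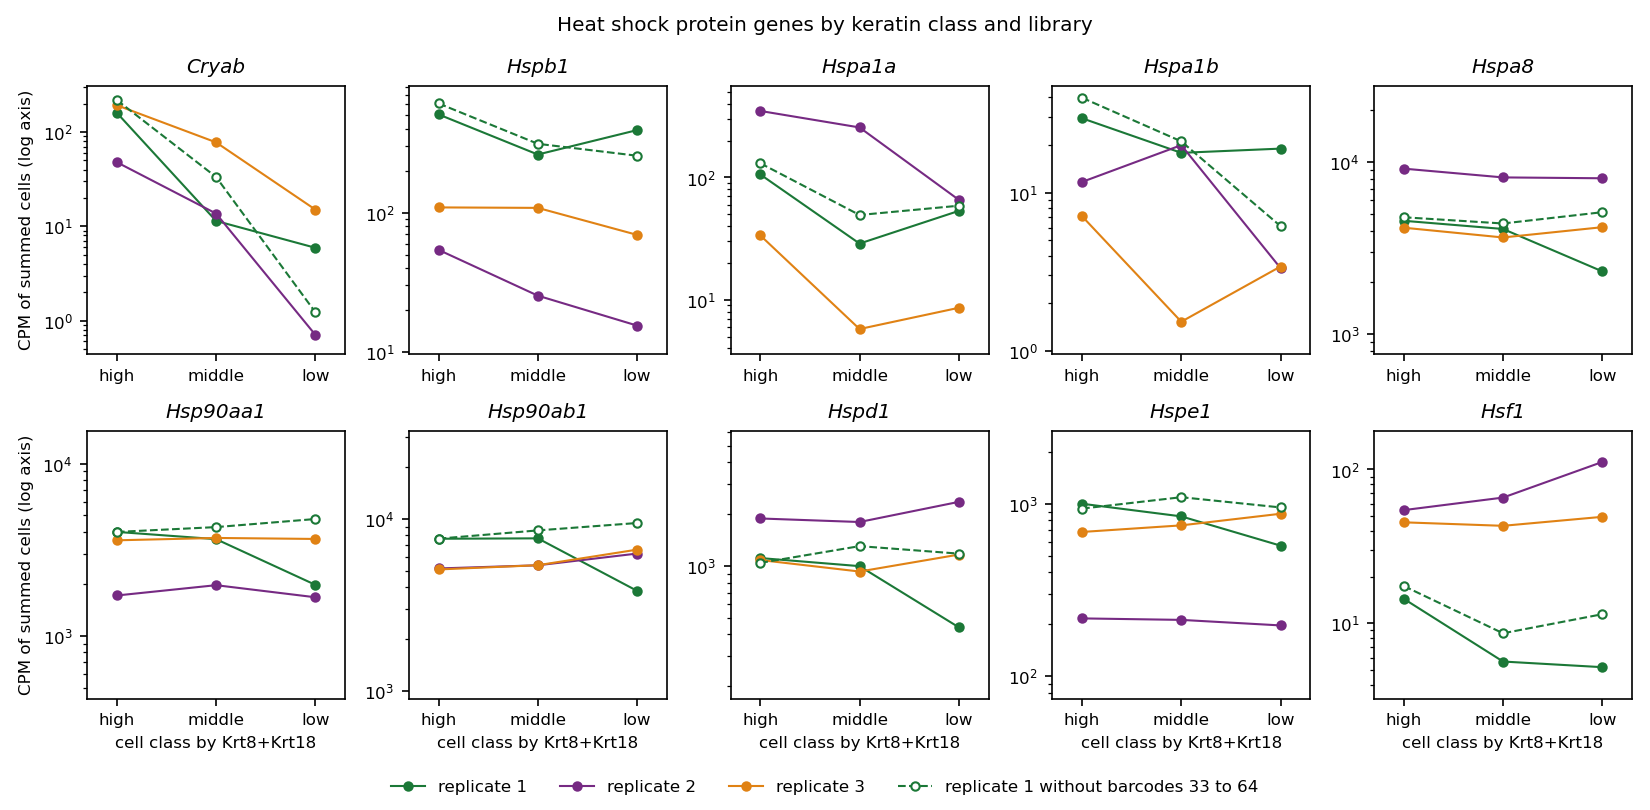
Level of the 10 genes by keratin class, in CPM of summed cells on a log axis, 1 panel for each gene and 1 line for each library, with open circles for replicate 1 without barcodes 33 to 64, classes drawn again. Cryab is over 10-fold higher in keratin-high than in keratin-low cells of each library, whereas the mean log2 ratios of the 5 abundant chaperones lie between -0.32 and 0.03 once those barcodes are left out.

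Cells were also thinned to 50000 counts each, so that deeper cells do not show more genes, which left 74, 56 and 72 cells. Cryab was then seen in 84.0%, 75% and 87.5% of keratin-high cells, against 12%, 0% and 8.70% of keratin-low cells. For replicate 2 this is 15 of 20 cells against 0 of 18, where 0 allows a share of up to 18.5% (exact binomial 95% interval), and these intervals cover counting error only. Unthinned and over all cells, 93.1%, 83.8% and 76.3% of the summed single-cell CPM of Cryab lay in keratin-high cells, where Krt8, which set the classes, had 86.5%, 73.1% and 75.9%. The share was not complete in either direction: 4, 5 and 3 thinned keratin-high cells of replicates 1, 2 and 3 had no Cryab count.

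Hspb1, which codes for HSP27, a small heat shock protein that binds actin and forms mixed complexes with alpha-B crystallin, did not follow the same pattern. The gene lies on chromosome 5 at 135887919 to 135889563, plus strand, with 3 exons. It stood at 507, 54.0 and 109 CPM in keratin-high cells, against 391, 15.5 and 69.3 CPM in keratin-low cells. It was higher in keratin-high cells of all 3 libraries, by 0.94 ± 0.76 on the log2 scale, but the groups overlapped, since libraries differed more than the classes did. A restriction to keratin-high cells was not seen: in thinned cells, 100%, 55.0% and 50.0% of keratin-high cells and 84.0%, 22.2% and 39.1% of keratin-low cells had a count. Keratin-high cells held 46.1%, 46.7% and 41.0% of its summed single-cell CPM. Without barcodes 33 to 64 of replicate 1 the values of that library were 608 CPM in keratin-high cells and 256 CPM in keratin-low cells with classes drawn again, a mean log2 ratio of 1.24 ± 0.58. With classes kept they were 505 CPM in keratin-high cells and 299 CPM in keratin-low cells, a mean log2 ratio of 1.07 ± 0.64.

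**Figure D2:**
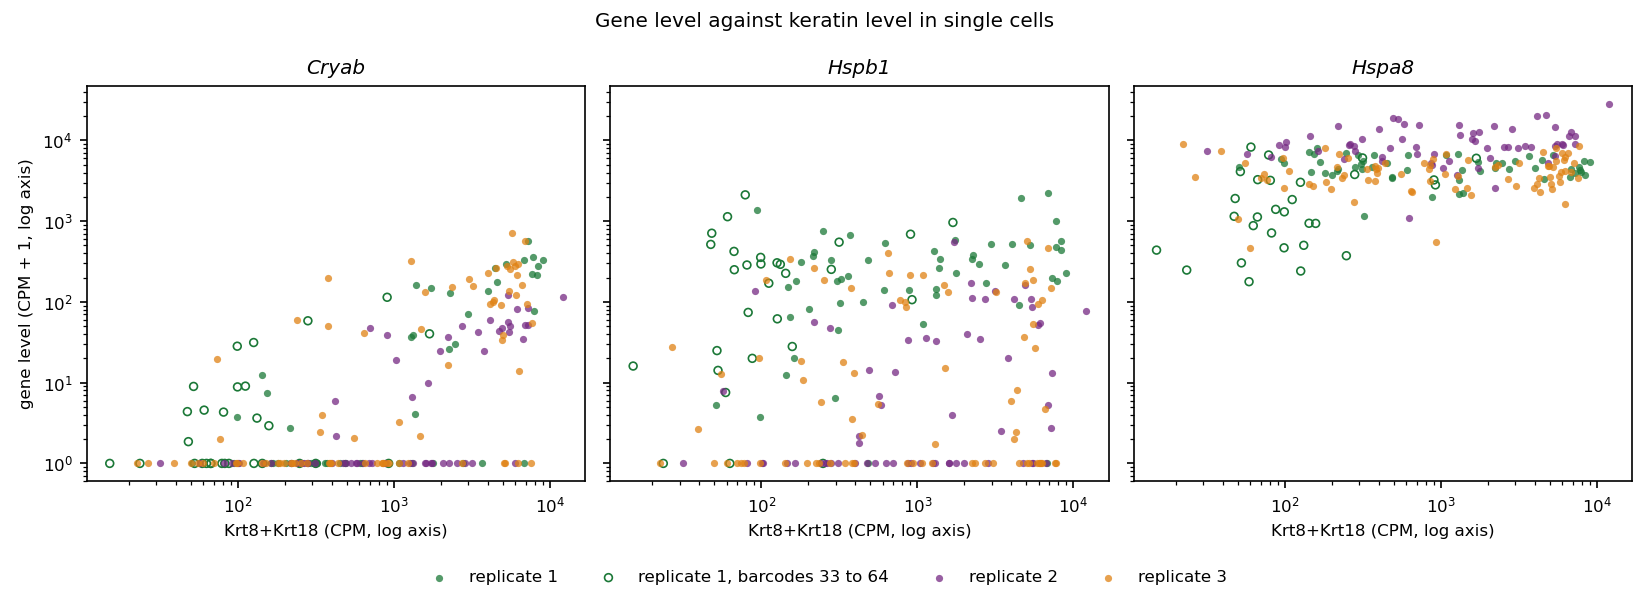
Level of Cryab, Hspb1 and Hspa8 in single cells against the keratin level Krt8+Krt18, both in CPM on log axes with 1 added to the gene level, 1 point for each of the 225 cells, with open circles for barcodes 33 to 64 of replicate 1. Cryab points leave the floor mainly on the right, Hspb1 points are spread over the whole range, and Hspa8 is above 100 CPM in all cells.

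Hspb1 also differed widely between ranges of barcodes. Over all cells of a range, Hspb1 stood at 67.4, 0.357 and 25.1 CPM at barcodes 1 to 32, 33 to 64 and 65 to 96 of replicate 2, and at 130, 3.24 and 167 CPM in those ranges of replicate 3. In replicate 1 the ranges held 562, 372 and 186 CPM. Barcodes 33 to 64 were thus nearly without Hspb1 in replicates 2 and 3, with 3 counts in 18 cells and 61 counts in 28 cells, and were not low in replicate 1. Within ranges, keratin-high cells were higher in 7 of 8. The ratio was large in replicate 3, at 169 CPM in keratin-high cells and 2.36 CPM in keratin-low cells of barcodes 1 to 32, and the keratin-low cells of that library drew most of their Hspb1 from barcodes 65 to 96, at 157 CPM with no keratin-high cells there. At barcodes 1 to 32 of replicate 2 the order was turned, with 65.4 CPM in keratin-high cells and 76.5 CPM in keratin-low cells. Cryab and Hspb1 were also not tied to each other: of thinned cells with a Cryab count, 26 of 26, 8 of 21 and 16 of 32 had one of Hspb1, where 68 of 74, 23 of 56 and 34 of 72 of all cells did.

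Hspa1a and Hspa1b code for near-identical inducible HSP70 proteins, which rise strongly on heat shock and which are also among the first genes of the mouse embryo to be transcribed. Both are single-exon genes on the minus strand of chromosome 17, at 34969190 to 34972156 and 34956436 to 34959238, with 9951 bases between them. Their transcripts share 84.3% of aligned positions, but the last 786 bases of Hspa1a and the last 619 of Hspa1b share no run of 30 bases, and 3′ ends are what was sequenced. How the authors counted reads that match both is not stated, and Hspa1a overlaps an exon of Gm20481 on the other strand, so their split is uncertain. Hspa1a had 2.85, 20.2 and 4.12 times the counts of Hspa1b in replicates 1, 2 and 3. Together they made up 1.92%, 2.17% and 0.424% of the 3 cytosolic HSP70 genes per kb, Hspa8 being the rest.

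Both inducible genes were concentrated in few cells and in 1 range of barcodes. The highest 8, 6 and 8 cells of replicates 1, 2 and 3 held 59.6%, 70.9% and 87.1% of the summed single-cell CPM of Hspa1a, and 57.5%, 72.6% and 67.3% of that of Hspa1b, whereas the same number of cells held 17.6%, 19.4% and 19.0% of Hspa8. Hspa1a stood at 140, 39.5 and 2.34 CPM at barcodes 1 to 32, 33 to 64 and 65 to 96 of replicate 1, at 637, 0.238 and 0.315 CPM in those ranges of replicate 2, and at 45.2, 0 and 6.79 CPM in those of replicate 3. Barcodes 1 to 32 were the highest range in each library, and in replicate 2 they held all but 5 of 6106 counts.

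Hspa1b followed, at 39.9, 20.02 and 0.731 CPM in the 3 ranges of replicate 1, at 30.8, 0 and 0.734 CPM in replicate 2, and at 10.5, 0.478 and 1.66 CPM in replicate 3. In thinned cells of barcodes 1 to 32, Hspa1a was seen in 20 of 26, 19 of 22 and 10 of 22 cells, and at barcodes 33 to 64 of replicate 2 in 0 of 16, which allows a share of up to 20.6% (exact binomial 95% interval). Of the 13784 genes past the filter on low counts, members included, 181 or 1.31% were at least 2-fold higher at barcodes 1 to 32 than in either other range of every library. Barcodes 33 to 64 were highest in this way for 0.813% of genes and barcodes 65 to 96 for 0.276%, with 0 members in either. Of the 10 members only Hspa1a met it for barcodes 1 to 32, and Hspa1b missed it in replicate 1 alone, at 39.9 against 20.02 CPM. The 14 immediate early genes, a set that answers quickly to many stimuli, summed to 329, 472 and 300 CPM at barcodes 1 to 32 of replicates 1, 2 and 3, to 108, 358 and 400 CPM at barcodes 33 to 64 and to 215, 164 and 307 CPM at barcodes 65 to 96, and their part in the values of Hspa1a was not tested.

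**Figure D3:**
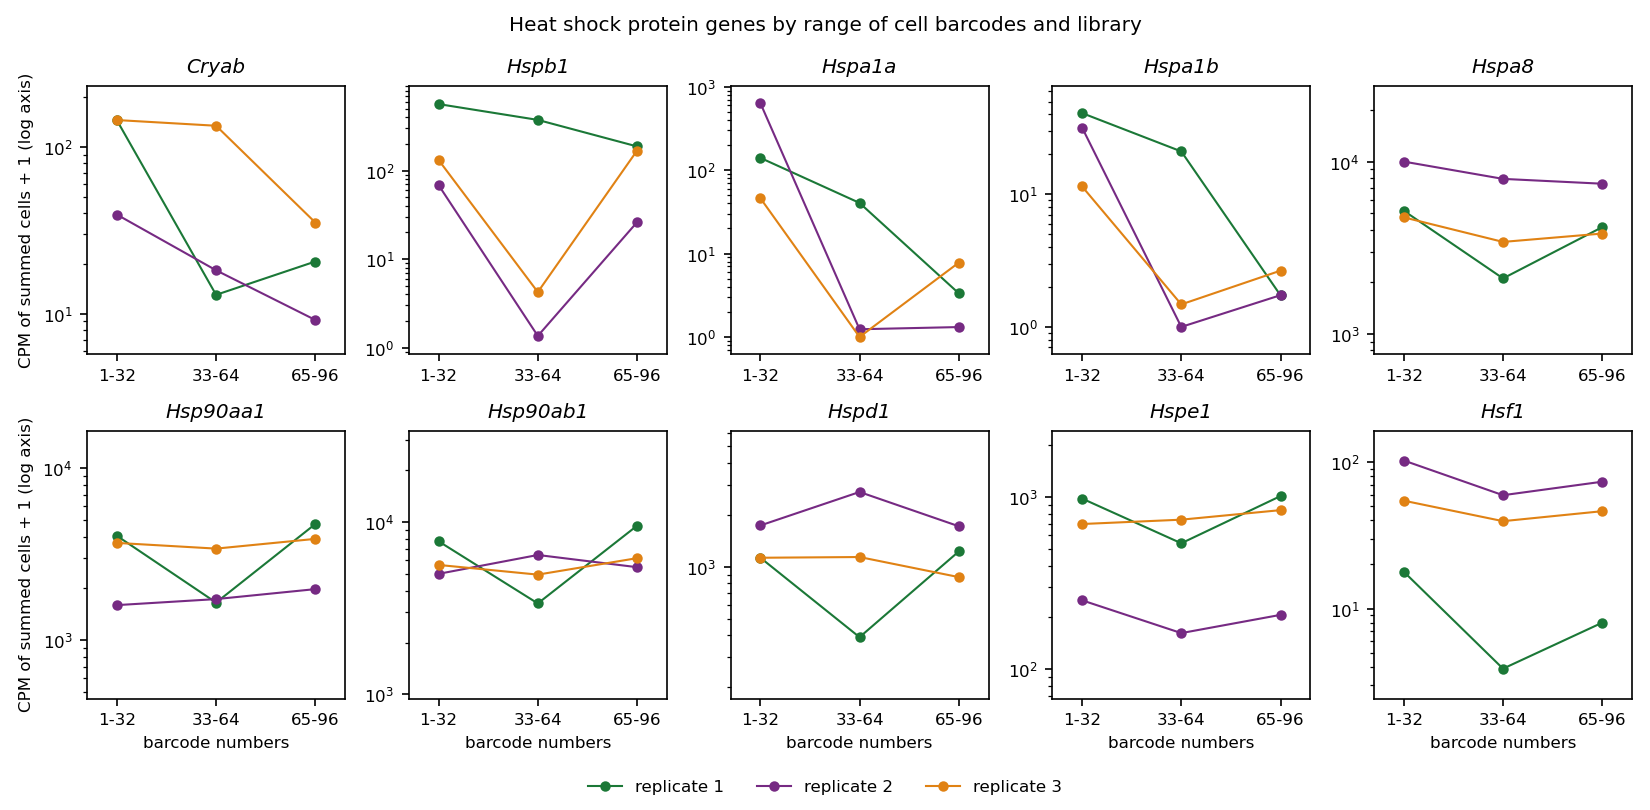
Level of the 10 genes by range of cell barcodes, in CPM of summed cells plus 1 on a log axis, 1 panel for each gene and 1 line for each library. Hspa1a and Hspa1b are highest at barcodes 1 to 32 in all 3 libraries, as are Cryab, Hspa8 and Hsf1. Hspb1 is near the floor at barcodes 33 to 64 of replicates 2 and 3. The 5 abundant chaperones vary least except at barcodes 33 to 64 of replicate 1.

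Against the keratins, Hspa1a stood at 106, 350 and 33.6 CPM in keratin-high cells and 53.3, 65.7 and 8.60 CPM in keratin-low cells, a mean log2 ratio of 1.79 ± 0.73 with overlapping groups. Hspa1b stood at 29.5, 11.7 and 7.09 CPM in keratin-high cells and 19.0, 3.33 and 3.41 CPM in keratin-low cells, a mean log2 ratio of 1.17 ± 0.59. Both were higher in keratin-high cells of each library. Within ranges this held in 5 of 8 for each gene, but some ranges held too few counts to give an order. Hspa1a at barcodes 33 to 64 of replicate 3 and Hspa1b at barcodes 33 to 64 of replicate 2 had 0 counts in both classes and were scored as not higher. At barcodes 65 to 96 of replicate 2, scored as higher, each class had 1 count of Hspa1a and 2 of Hspa1b. The 5 of 8 thus gives no firm reading. At barcodes 1 to 32, where most counts of both genes lay, Hspa1a stood at 143, 557 and 53.2 CPM in keratin-high cells of replicates 1, 2 and 3 and at 327, 511 and 14.7 CPM in keratin-low cells. The 327 CPM of replicate 1 come from 2 keratin-low cells, and 1 of these held all 210 counts. The mean log2 ratio of Hspa1a in that range was 0.26, and that of Hspa1b 0.22. Without barcodes 33 to 64 of replicate 1 and with classes drawn again, the ratios over whole libraries were 1.84 ± 0.64 for Hspa1a and 1.85 ± 0.82 for Hspa1b. With classes kept they were 1.33 ± 1.51 and 1.34 ± 0.41, and Hspa1a of replicate 1 stood at 106 CPM in keratin-high cells and 140 CPM in the 5 keratin-low cells. That same 1 cell held all Hspa1a counts of these 5 cells, so the order in replicate 1 rests on it.

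Hspa8 codes for HSC70, the constitutive cytosolic HSP70, which folds new proteins and uncoats clathrin vesicles. The gene lies on chromosome 9 at 40800984 to 40810087, plus strand, and its exon annotation overlaps the small nucleolar RNA genes Snord14c, Snord14d and Snord14e. It stood at 4560, 9158 and 4157 CPM in keratin-high cells, against 2319, 8051 and 4186 CPM in keratin-low cells. The mean log2 ratio was 0.38 ± 0.52, with nearly equal levels in replicates 2 and 3. When barcodes 33 to 64 of replicate 1 were left out, that library held 4780 CPM in keratin-high cells and 5115 CPM in keratin-low cells with classes drawn again, and the ratio was 0.03 ± 0.15. With classes kept it held 4553 CPM in keratin-high cells and 5319 CPM in keratin-low cells, and the ratio was -0.02 ± 0.21. Within ranges, Hspa8 was higher in keratin-high cells in 3 of 8.

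Hsp90aa1 and Hsp90ab1 code for the cytosolic HSP90 alpha and beta, the first stress-inducible and the second mainly constitutive in most cells. Hsp90aa1, on chromosome 12 at 110690605 to 110702728, minus strand, stood at 4012, 1714 and 3585 CPM in keratin-high cells and 1978, 1674 and 3651 CPM in keratin-low cells. Hsp90ab1, on chromosome 17 at 45567775 to 45573271, minus strand, stood at 7654, 5144 and 5078 CPM in keratin-high cells and 3815, 6278 and 6617 CPM in keratin-low cells. In replicate 1 both were higher in keratin-high cells, and without barcodes 33 to 64 of that library this order was turned, with classes drawn again or kept. With classes drawn again Hsp90aa1 stood at 4010 CPM in keratin-high cells and 4765 CPM in keratin-low cells of that library, and Hsp90ab1 at 7665 CPM in keratin-high cells and 9446 CPM in keratin-low cells. The mean log2 ratios were -0.08 ± 0.15 and -0.32 ± 0.05 with classes drawn again and -0.08 ± 0.15 and -0.33 ± 0.05 with classes kept, the second negative in all 3 libraries, against 0.34 ± 0.59 and 0.11 ± 0.77 with those barcodes. Within ranges, Hsp90ab1 was higher in keratin-high cells in 1 of 8, barcodes 33 to 64 of replicate 1, which held only 1 keratin-high cell. Hsp90aa1 was higher in 4 of 8, that range included. Hsp90aa1 made up 27.9%, 19.5% and 33.4% of the pair per kb.

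Hspd1 and Hspe1 code for HSP60 and HSP10, the chaperonin and its lid in the mitochondrial matrix. They lie head to head on chromosome 1, at 55077835 to 55088243 on the minus strand and 55088132 to 55091307 on the plus strand, with annotated starts that overlap by 112 bases. Hspd1 stood at 1110, 1885 and 1081 CPM in keratin-high cells and 440, 2353 and 1163 CPM in keratin-low cells. Hspe1 stood at 1001, 216 and 686 CPM in keratin-high cells and 571, 197 and 875 CPM in keratin-low cells. The mean log2 ratios of 0.30 ± 0.90 and 0.20 ± 0.58 were within the spread between libraries, and without barcodes 33 to 64 of replicate 1 they were -0.20 ± 0.11 and -0.08 ± 0.25 with classes drawn again and -0.12 ± 0.19 and -0.09 ± 0.25 with classes kept. Within ranges, each was higher in keratin-high cells in 3 of 8. Across libraries the pair moved apart, since replicate 2 was the highest for Hspd1 and the lowest for Hspe1, the shortest member.

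Hsf1, the transcription factor that activates heat shock genes, lies on chromosome 15 at 76477422 to 76501913, plus strand, with 13 exons. It stood at 14.4, 54.5 and 45.4 CPM in keratin-high cells, against 5.19, 112 and 49.2 CPM in keratin-low cells. The libraries went in different directions, with a mean log2 ratio of 0.11 ± 1.27, and without barcodes 33 to 64 of replicate 1 it was -0.18 ± 0.83 with classes drawn again and -0.47 ± 0.49 with classes kept. Within ranges, it was higher in keratin-high cells in 2 of 8. Replicate 1 had only 249 Hsf1 counts over 83 cells, so a difference there was not detectable for single cells at this depth.

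The members fell into a variable and an even set. In thinned cells the SD over the mean was 2.06, 1.54 and 1.77 for Cryab in replicates 1, 2 and 3, 1.24, 1.68 and 1.72 for Hspb1, 1.94, 2.48 and 2.96 for Hspa1a, 1.8, 2.41 and 2.84 for Hspa1b and 1.99, 1.42 and 1.59 for Hsf1. It lay between 0.312 and 0.604 for the abundant Hspa8, Hsp90aa1, Hsp90ab1, Hspd1 and Hspe1 in all libraries. These 2 sets did not overlap. Genes with few counts vary more by counting alone, and how much of the spread this gives was not tested. At least 1 count was found in 100% of thinned cells for these 5 genes, with the exception of Hspd1 in replicate 3, in 71 of 72.

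**Figure D4:**
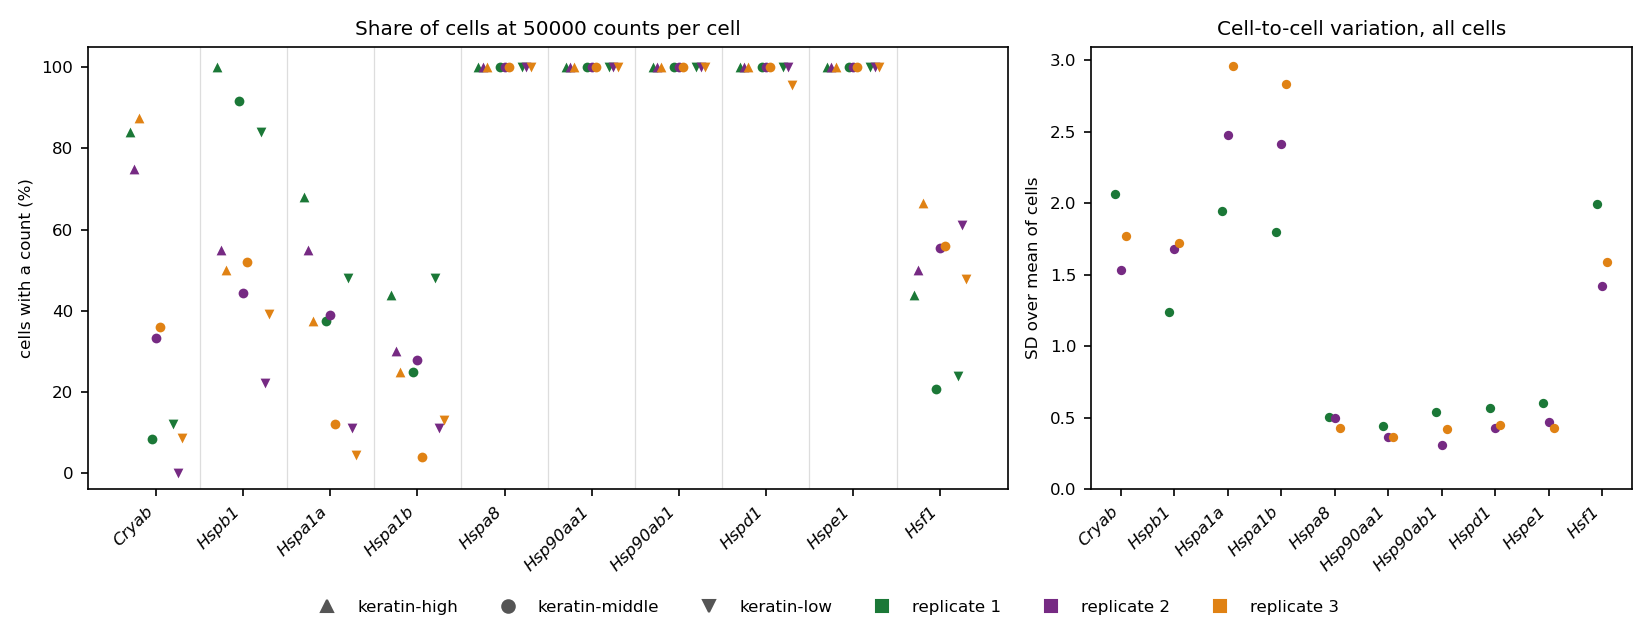
Left, share of cells with a count after thinning to 50000 counts per cell, by keratin class (marker shape) and library (colour). Right, SD over mean across all thinned cells of a library. Cryab is seen in most keratin-high and few keratin-low cells of each library, Hspb1, Hspa1a, Hspa1b and Hsf1 have overlapping shares, and the other genes are at or near 100%.

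Correlations across cells are descriptions over 74, 56 and 72 thinned cells, which share a library and a range of barcodes. Cryab had a Spearman rho of 0.72, 0.73 and 0.71 with Krt18 and of 0.66, 0.70 and 0.63 with Krt8 in replicates 1, 2 and 3. Within the 9 ranges of 32 barcodes its rho with Krt18 lay between 0.28 and 0.92, positive in all 9. Its rho with Hspb1 was only 0.37, 0.13 and 0.02. Hspb1 reached 0.35, 0.17 and 0.11 with Krt18.

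Hspa1a and Hspa1b had a rho of 0.66, 0.84 and 0.38 with each other, and of 0.72, 0.82 and 0.42 within barcodes 1 to 32 alone. Of thinned cells with an Hspa1b count, 26 of 29, 13 of 13 and 5 of 10 also had one of Hspa1a. Hspb1 and Hspa1a had 0.53, 0.37 and 0.33. Among the abundant chaperones, Hspa8 and Hsp90ab1 had 0.75, 0.63 and 0.43, and Hsp90aa1 and Hsp90ab1 had 0.67, 0.30 and 0.55. Replicate 1 was the tightest, and without its barcodes 33 to 64 these were 0.42 and 0.18 there. Hspd1 and Hspe1, which share a promoter region, had 0.67, -0.17 and 0.35, and 0.30 in replicate 1 without those barcodes. Hsf1 was weakly related to every other member, from -0.19 to 0.39.

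The genes most like a member were taken by mean rho over the 3 libraries, among genes with a count in at least 20% of thinned cells. For Cryab they were Fabp3 (a fatty acid carrier, 0.72), Krt18 (0.72), Anxa2 (a membrane-binding annexin, 0.71), Dab2 (an endocytic adaptor, 0.69) and Slc15a2 (a peptide transporter, 0.67), where the median over 6701 genes was 0.05. For Hspb1 they were Pfn1 (profilin, an actin-binding protein, 0.55), Hmgn1 (0.54), 0610012G03Rik (0.54), Mrps24 (0.53) and Ndufab1 (0.53), with lower values in replicate 1, from 0.19 to 0.36. For Hspa1a the closest was Dnajb1 (0.58), the J-domain partner of inducible HSP70, at 0.61, 0.75 and 0.38 in the 3 libraries and 0.62, 0.64 and 0.42 within barcodes 1 to 32. Gsto1 (0.45), Snhg12 (0.45), the HSP110 gene Hsph1 (0.45) and the galectin gene Lgals3 (0.45) came next. For Hspd1 they were the glycolytic Pkm (0.59) and Aldoa (0.53), the elongation factor genes Eef2 (0.56) and Eef1a1 (0.51), and Ahcy (0.54). Dnajb1 and Hsph1 shared the range pattern of Hspa1a in part: Dnajb1 stood at 359, 95.7 and 75.3 CPM in the 3 ranges of replicate 1, at 485, 27.6 and 45.4 CPM in replicate 2 and at 156, 26.5 and 129 CPM in replicate 3. Hsph1 stood at 755, 323 and 348 CPM, at 1537, 148 and 442 CPM and at 490, 360 and 462 CPM in those ranges of the 3 libraries.

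Tests were run on 2 contrasts that did not choose the members. Keratin-low cells were split by a score of primitive endoderm minus epiblast genes, 36 endoderm-leaning against 38 epiblast-leaning cells, and all cells were ranked by 20 genes of the G2 and M phases of the cell cycle and split in the same way into high, middle and low cells. The names endoderm-leaning and epiblast-leaning describe the score only. The 17 trophectoderm genes summed to 907, 576 and 678.5 CPM in endoderm-leaning cells and 766, 914 and 414.5 CPM in epiblast-leaning cells. In the endoderm contrast edgeR's quasi-likelihood test called 0 of 12243 genes (0% called, 430 at an unadjusted p under 0.05), and 0 of the 10 members. Their log2 fold changes lay between -0.64 and 1.39, with a lowest unadjusted p of 0.35. Cryab stood at 10.8, 0.243 and 32.2 CPM in endoderm-leaning cells against 2.49, 1.04 and 4.87 CPM in epiblast-leaning cells, so the libraries went in different directions. In replicate 1 all 13 endoderm-leaning and 9 of 14 epiblast-leaning cells were at barcodes 33 to 64. Both sets were drawn from keratin-low cells, so low Cryab next to keratin-high cells is no separate result of this contrast. Behind each value were 1 to 169 counts, and single cells carried much of these. In replicate 3, 1 cell held 161 of the 212 Cryab counts of all keratin-low cells, and in replicate 1, 1 cell held 32 of 73. Without barcodes 33 to 64 of replicate 1 and with classes drawn again, 0 of 11240 genes were called (0%), and 0 members. The members' log2 fold changes then lay between -3.58 and 0.18, and Hspa1a at -3.58 and Hspb1 at -0.74 had an unadjusted p under 0.05, each with an edgeR adjusted p of 1. The lowest unadjusted p was 0.0364 in edgeR's test, for Hspa1a. Cryab was at -0.39, with 0.370 CPM from 1 count in endoderm-leaning and 2.29 CPM from 5 counts in epiblast-leaning cells of replicate 1. With classes kept, replicate 1 had no endoderm-leaning cell, so that the values rest on replicates 2 and 3; 1 of 12493 genes (0.008%) and 0 members were called, with log2 fold changes of the members from -1.30 to 0.83.

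In the mitotic contrast the same test called 0 of 13810 genes (0% called, 847 unadjusted) and 0 of the 10 members, with log2 fold changes from -0.98 to 1.46. Cryab had the largest, at 1.46 with an SE of 0.74 and an edgeR Benjamini-Hochberg adjusted p of 0.62. It stood at 45.4, 27.0 and 138 CPM in cells high for the G2 and M genes, against 13.7, 21.0 and 25.7 CPM in cells low for them, so that it was higher in the high cells of all 3 libraries. Once barcodes 33 to 64 of replicate 1 were left out, that library gave no firm order. With classes drawn again Cryab stood at 60.5 CPM in the high and 151 CPM in the low cells there, and the log2 fold change was 0.40. With classes kept it stood at 60.6 CPM in the high and 62.4 CPM in the low cells, and the log2 fold change was 0.91. Over all kept cells, the 17 trophectoderm genes summed to 955, 3618 and 2927 CPM in the high cells of replicates 1, 2 and 3. In the low cells they summed to 1117, 2959 and 2147 CPM, and their part in the Cryab values was not tested. Hspa1b had the most negative value, at -0.98 with an SE of 0.62 and an edgeR adjusted p of 0.62. Without those barcodes and with classes drawn again, 6 of 13205 genes (0.0454%, 6 higher) and 0 members were called, Hspa1b, Hspa8, Hsp90ab1 and Hspa1a had an unadjusted p under 0.05 with lower levels in the cells high for these genes, and the lowest adjusted p among members was 0.547. With classes kept 6 of 13211 genes (0.0454%), 5 higher (0.0378%) and 1 lower (0.00757%), and 0 members were called. Hsp90ab1, at a log2 fold change of -0.54 with an edgeR adjusted p of 0.0742, and Hspa8, at -0.36 with one of 0.385, then had an unadjusted p under 0.05. DESeq2 called 63 genes in the endoderm and 197 in the mitotic contrast. Library was a block in the edgeR tests, so level differences between libraries do not enter their p-values. These p-values measure how far the difference between classes varied over the 3 libraries. That variation may be technical, since no label assigns each library its own culture.

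Other genes of the chaperone machinery were tested in the keratin contrast by name lists, 84 genes in all, of which 79 passed the filter on low counts. In the comparison of all cells 0 rose and 0 fell, where 0.45% of all genes tested were called higher and 0.0871% lower, and 9 had an unadjusted p under 0.05 with higher and 2 with lower values. The median log2 fold change was 0.27 over the 79 genes and -0.13 over all genes. Without barcodes 33 to 64 of replicate 1 and with classes drawn again, an alternative added after the values were seen, 4 of 78 rose and 5 fell, where 4.05% of all 13347 genes were called higher and 2.95% lower. The median log2 fold change was then 0.02 over the 78 genes and -0.003 over all genes. With classes kept, also added after the values were seen, 2 of 78 rose and 3 fell, where 5.3% of all 13276 genes were called, 3.1% higher and 2.19% lower. The 5 genes called in both ways were Fkbp4, Dnajb1, Stip1, Dnaja1 and Hspb8.

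Among the HSP90 family and its cochaperones, 2 of 12 rose and 2 fell with classes drawn again, to which the values of the next sentences belong. Fkbp4, a prolyl isomerase that works with HSP90 on steroid receptors, stood at 1115, 1365 and 558 CPM in keratin-high cells and 956, 501 and 338 CPM in keratin-low cells, a log2 fold change of 0.78 with an edgeR adjusted p of 0.0250. Hsp90b1, the HSP90 of the endoplasmic reticulum, stood at 610, 653 and 585 CPM in keratin-high cells and 526, 345 and 325 CPM in keratin-low cells, a log2 fold change of 0.62 with an edgeR adjusted p of 0.0463. Both were higher in keratin-high cells of every library. Stip1, which links HSP70 to HSP90, fell to 604, 1352 and 683 CPM in keratin-high cells, against 898, 2850 and 995 CPM in keratin-low cells, a log2 fold change of -0.76 with an edgeR adjusted p of 0.00466. Sugt1, another cochaperone of HSP90, fell by 0.52 on the log2 scale, with an edgeR adjusted p of 0.0464, but within ranges of barcodes it was lower in only 5 of 8. With classes kept the edgeR adjusted p was 0.0772 for Hsp90b1 and 0.0810 for Sugt1.

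Of the 21 J-domain genes 1 rose and 1 fell. Dnajb1 stood at 365, 265 and 106 CPM in keratin-high cells and 125, 102 and 79.9 CPM in keratin-low cells, a log2 fold change of 1.10 with an edgeR adjusted p of 0.0103, but within ranges of barcodes it was higher in 5 of 8, against 7 of 8 for Fkbp4 and 6 of 8 for Hsp90b1. Dnaja1, a J-domain partner of Hspa8, fell by 0.57 on the log2 scale with an edgeR adjusted p of 0.00966, and it was lower in 7 of 8 ranges, as were Stip1 and Cct8. Cct8, a subunit of the cytosolic chaperonin TRiC, fell by 0.38 with an edgeR adjusted p of 0.0444 and was the 1 of 14 TRiC and prefoldin genes called, with an adjusted p of 0.0938 with classes kept.

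Of the other small heat shock proteins, 4 of 8 were tested, 1 rose and 1 fell. Hspb8, the partner of Bag3 in selective autophagy, fell to 19.0, 60.2 and 29.6 CPM in keratin-high cells, against 54.1, 100 and 82.5 CPM in keratin-low cells, a log2 fold change of -1.25 with an edgeR adjusted p of 0.0163, and was lower in 6 of 8 ranges. Hspb2, named after its values were seen since its mean level was below the limit for naming, stood at 10.99, 2.20 and 5.53 CPM in keratin-high cells and 0, 0.101 and 0 CPM in keratin-low cells. Its edgeR adjusted p was 0.0389, and 0.0806 with classes kept, and it shares exon sequence with Cryab on the opposite strand, so without a stated strand setting its reads cannot be told from those of Cryab. Over the alternatives tried, the lowest and the highest adjusted p were 0.0109 and 0.532 for Fkbp4, 0.0279 and 0.667 for Hsp90b1, 0.0103 and 0.764 for Dnajb1, 0.0269 and 0.494 for Hspb2, and from 0.0046 to 0.994 over the 5 genes that fell, so none of these calls held under every alternative. In the HSP70 and HSP110 family 0 of 11 were called (2 at an unadjusted p under 0.05), and likewise 0 of 9 nucleotide exchange factors (0 unadjusted), 0 of 9 mitochondrial proteostasis genes (1 unadjusted) and 0 of 3 other heat shock factors and their binding protein (1 unadjusted).

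**Figure D5:**
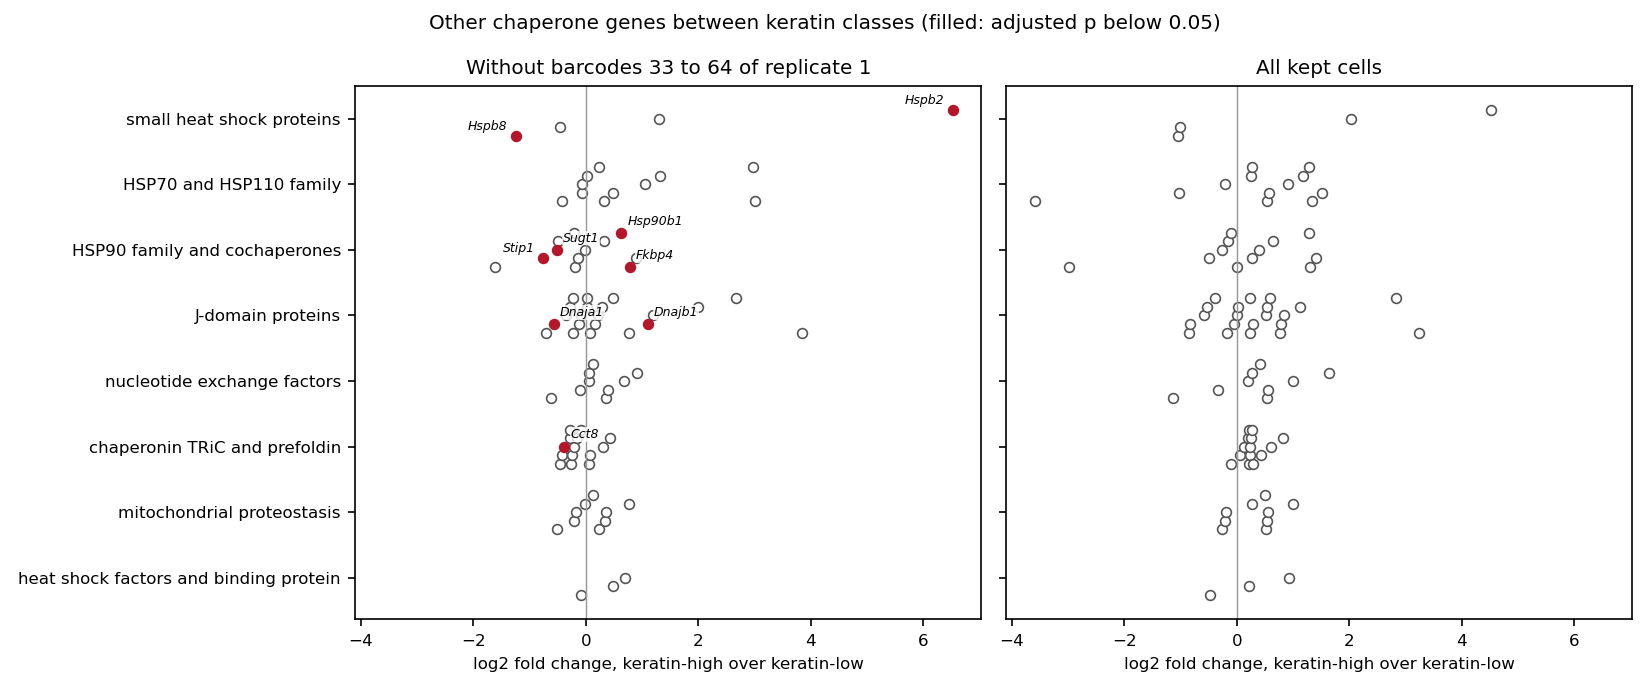
Log2 fold change of the other chaperone genes between keratin-high and keratin-low cells, 1 point for each gene, without barcodes 33 to 64 of replicate 1 and with classes drawn again on the left and with all cells on the right, with filled points for an adjusted p below 0.05. Called genes lie on both sides of 0 on the left, 4 higher and 5 lower, and there are none on the right.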

How the data were processed

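The files deposited by the authors hold raw counts for every gene in every cell barcode, with no scaling. Per the submitters' processing notes the tools were CASAVA 1.8, HISAT2 and HTSeq, on mm10; the remaining versions, annotation, strand setting and any collapsing of unique molecular identifiers are not stated in the sources used. Counting reads rather than molecules would widen the spread of rare genes. The members and gene lists were chosen with earlier results of these data known.

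Barcodes with at least 2000 genes were kept, and no doublet caller was run on these hand-picked cells. CPM are counts over a cell's total, or over the total of summed cells. Sums weight deep cells most. Cells were summed by class within each library, and edgeR 4.0.16 (R 4.3.3; TMM, filterByExpr, library as block because the classes share a library) was tested on simulated data and run with a threshold of 0.05 on the Benjamini-Hochberg adjusted p over all genes tested, without the genes that define a score. DESeq2 1.42.0, other cuts, filters, scalings and left-out libraries were alternatives. Binomial intervals and a floor of 3 counts cover counting error only. Spearman correlations used cells thinned to 50000 counts. Named genes are the 10 members, up to 8 chaperone genes past the threshold in each direction whose mean log2 CPM reached 5, and the 5 genes most like Cryab, Hspb1, Hspa1a and Hspd1; since no chaperone gene passed with all cells, those named come from the comparison without barcodes 33 to 64 of replicate 1 in which the classes were drawn again in the remaining 54 cells of that library; the classes were also kept as first drawn. Gene positions, exons and transcript lengths are from GENCODE M21 on mm10.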

Additional observations from a re-analysis of the deposited data

Results flagged for a closer look

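Barcodes with fewer than 2000 genes entered no comparison, yet members were counted there above the 3 counts that a count of 0 allows. The 63 barcodes held 8105 counts of all 10 genes, with 3010 of Hspa8, 2469 of Hsp90ab1, 2086 of Hsp90aa1, 318 of Hspd1 and 198 of Hspe1. The variable genes had few counts there, with 12 of Hspa1a, 5 of Hspb1, 4 of Cryab, 3 of Hspa1b and 0 of Hsf1. Over all genes these barcodes held only 47251, 92365 and 180100 counts in replicates 1, 2 and 3. At that depth a low count of a rare gene does not show a loss of it.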

How the results depend on the processing

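The count of 74 genes called in the keratin contrast depended on the processing. It was 113 with 1 cut over all libraries, 368 without cells of high totals, 167 with cells thinned to 20000 counts, 144 without a filter, 1259 with DESeq2 (493 higher and 766 lower, against 62 and 12), 180 with a score of other trophectoderm genes and, without barcodes 33 to 64 of replicate 1, 934 with classes drawn again and 703 with classes kept. Without 1 replicate it ranged from 0 to 448, at 0 without replicate 2 (1504 unadjusted) or replicate 3 (1313) and 448 without replicate 1. With no replicate block it was 0 (1400 unadjusted), against 74 with the pairing of classes within a library. The endoderm contrast called 2 genes without cells of high totals, 63 with DESeq2 and 1 without barcodes 33 to 64 of replicate 1 with classes kept. The mitotic contrast called 197 with DESeq2, from 0 to 1 without 1 replicate and 6 without barcodes 33 to 64 of replicate 1, with classes drawn again or kept. No member was called in either under any alternative tried.

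The mean log2 ratio of Cryab was 3.54 with cells divided at the median, 6.59 without cells of high totals, and 7.24 within barcodes 1 to 32 and 2.48 within 65 to 96. The first range value is the mean of replicates 1 and 3 alone, at 7.01 and 7.47 with 1 and 4 counts in keratin-low cells, since replicate 2 had 0 counts there, and the second that of replicates 1 and 2, at 3.91 and 1.06. That of Hspb1 was 1.99, 2.16 and 2.03 within barcodes 1 to 32, 33 to 64 and 65 to 96, over the ranges with both classes. The first is the mean of 0.02, -0.23 and 6.16 in replicates 1, 2 and 3, the second that of 1.25, 2.14 and 3.07, where replicate 2 had 2 counts in keratin-high and 1 in keratin-low cells, and the third that of 1.52 and 2.54 in replicates 1 and 2. The 1.25 of replicate 1 rests on 1 keratin-high cell. The share of keratin-high cells with Cryab was 45.1% at 10000 counts, against 82.2% at 50000, and that of keratin-low cells was 25.7% unthinned, against 6.90%. Cryab gave no ratio with 1 cut over all libraries or with thinned sums, since keratin-low cells of replicate 2 had no count.

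Several chaperone genes changed sign. The log2 fold change of Dnaja1 ranged from -0.64 to 0.19 when 1 replicate was left out, and was 0.0084 with Krt8 alone as score and 0.041 with other trophectoderm genes, where Hspb8 was at 0.089. Sugt1 ranged from -0.54 to 0.25 without 1 replicate. Cct8, at 0.13 with all cells, ranged from -0.32 to 0.51 without 1 replicate, and was at -0.063 without cells of high totals, -0.13 with no replicate block and, without barcodes 33 to 64 of replicate 1, -0.38 with classes drawn again and -0.37 with classes kept. The causes were not tested. Members with few counts, Hspa1b and Hsf1 above all, are limited by depth.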

Other observations

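The HSP90 cochaperone gene Fkbp4 was low at barcodes 33 to 64 in all 3 libraries, at 198, 143 and 168 CPM, against 1100, 1651 and 653 CPM at barcodes 1 to 32 and 958, 765 and 627 CPM at barcodes 65 to 96. The share of all genes that were likewise lowest at barcodes 33 to 64 in every library is not given here. In replicate 1 the cells of barcodes 33 to 64 were low in the 5 abundant members too, but in replicates 2 and 3 Hsp90ab1 stood at 6450 and 4960 CPM there, against 5012 and 5646 CPM at barcodes 1 to 32. Dnajb1 was lowest in the same range in replicates 2 and 3, at 27.6 and 26.5 CPM. These values were picked after they were seen and carry no test.

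Of the 79 other chaperone genes past the filter, Dnajb4 and Hspb2 were at least 2-fold higher at barcodes 1 to 32 than in both other ranges of each library, and 0 were so at barcodes 33 to 64 or 65 to 96. Over all genes 1.31%, 0.813% and 0.276% were highest in this way at barcodes 1 to 32, 33 to 64 and 65 to 96.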
